A study of Emberiza melanocephala with 4 samples.

Results

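G protein-coupled receptors were followed through RNA sequencing labelled as testis of the black-headed bunting (Emberiza melanocephala), a migratory songbird. The receptors were the genes whose reference symbol began with one of a set of receptor prefixes, such as GPR with a number, ADRA, HTR, DRD, P2RY, S1PR, ACKR, SSTR or FZD. This pattern took 62 of the 2296 reference genes (1509 different symbols) matched in any of the 4 libraries. Receptors with other symbols, among them the GABA-B, angiotensin and adhesion receptors, are counted apart.

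The 4 libraries came from wild-caught birds, with 1 library for each testicular state: sensitive, early stimulated, late stimulated and refractory. The labels give no age, day length, number of birds or pooling, and a state named below stands for the library labelled so. A single library stands for each state, without replicates, so each difference describes a pair of libraries and carries no p-value.

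G protein-coupled receptors cross the cell membrane with a bundle of helices and pass the binding of a ligand to heterotrimeric G proteins, which act on enzymes and ion channels inside the cell. Their ligands include monoamines, nucleotides, lipids, chemokines, peptides and WNT proteins, the last for the Frizzled receptors. In vertebrates many of their genes have an uninterrupted coding region, and in the testis members of this class receive the pituitary hormones that drive the gonad.

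The level of a gene was taken from its exons: their mean coverage, summed over every listed transcript, was put on the FPKM scale of its library, that is, fragments per unit of exon length and of library size. The aligned bases came to 120 Mb for sensitive, 201 Mb for early stimulated, 428 Mb for late stimulated and 318 Mb for refractory. Unmatched transcripts, those that no reference transcript explains, appear in the files from a coverage of 2.5 upwards. That floor equals 20.8 FPKM in sensitive, 12.5 FPKM in early stimulated, 5.84 FPKM in late stimulated and 7.86 FPKM in refractory.

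Gene structure set how far the receptors could be followed under these floors. Of the 62 receptors 56 had a single exon, of 936 to 2187 bases, and 60, all but GPR78 and PTGER4, had a length that is a multiple of 3, as a coding region has. Single-exon reference genes were listed far below the floor, with a receptor at 0.194 FPKM in sensitive, at 0.0586 FPKM in late stimulated and at 0.129 FPKM in refractory, the lowest of those libraries. The commonest total of a listed single-exon gene was 51 aligned bases in every library, and no source used here states the read length. Totals below are therefore also given as multiples of 51 bases, as a measure of how little sequence stands behind a low level. The remaining 6 receptors, ADRA1D, GPR137B, GPR162, GPR180, GPR78 and PTGER4, had several exons, and for them an unlisted gene may lie anywhere under the floor. Such receptors were listed under it too, with ADRA1D at 1.62 FPKM in late stimulated and PTGER4 at 2.52 FPKM in early stimulated. How often they go unlisted there was not tested.

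Receptors were low genes in these libraries. Coverage was listed for 44 of the 62 receptors in the sensitive library, 40 for early stimulated, 50 for late stimulated and 45 for refractory, and 27 receptors were covered in all 4 libraries. The highest level that a receptor reached in any library had a median of 2.0 FPKM, against 3.34 FPKM for 282 other single-exon genes of at least 800 bases and 15.7 FPKM for all genes. In 22 receptors no library reached 1 FPKM. Another 12 receptors reached 10 FPKM or more in some library.

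**Figure D1:**
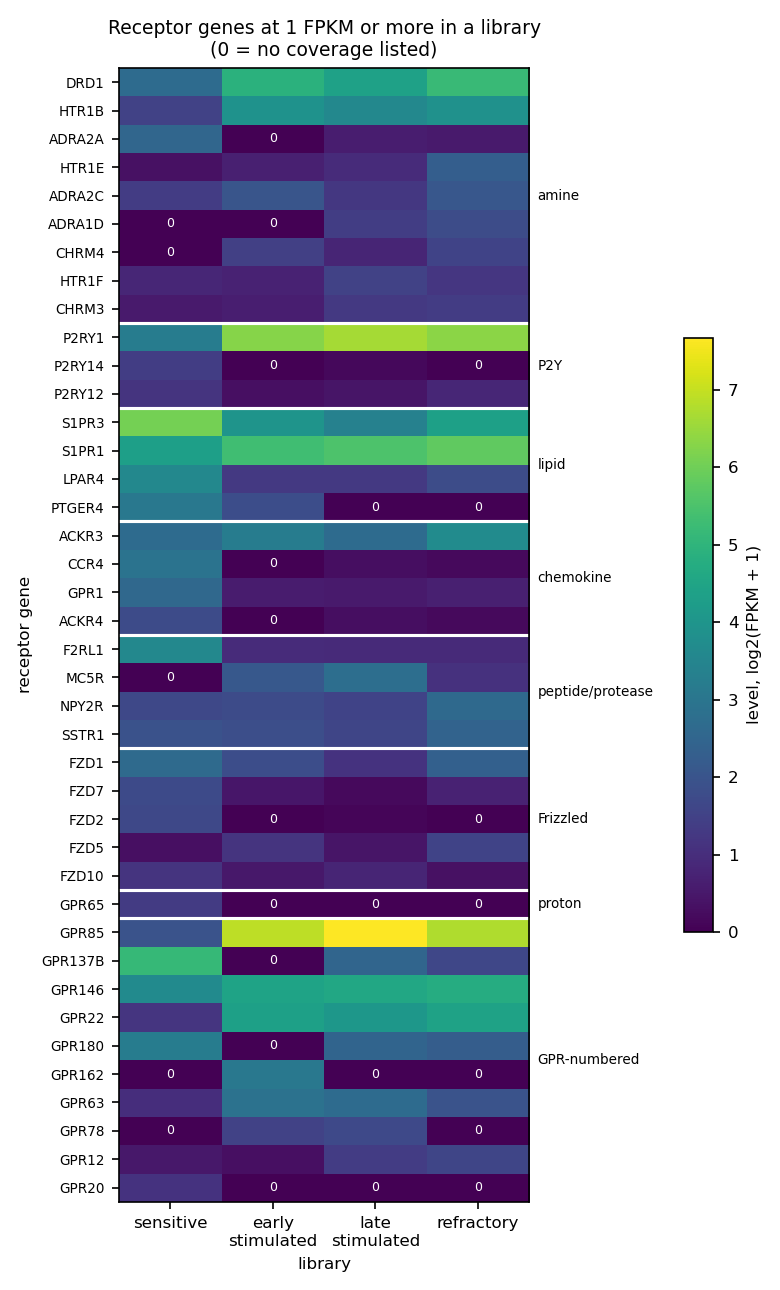
Level of the 40 receptor genes that reached 1 FPKM in at least 1 library, as log2(FPKM + 1) in colour, with genes in rows by ligand class and libraries in columns; 0 marks a library in which no coverage was listed. GPR85 and P2RY1 are brightest outside the sensitive library, and S1PR3 and GPR137B are brightest in it.

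The libraries differed in their cell markers, and every receptor result stands beside these values. Of 20 photoreceptor markers 7 were named in the files, led by PDC, PDE6H and GUCA1C, and all 7 were at 0 in sensitive. Their summed level was 796 FPKM in early stimulated, 536 FPKM in late stimulated and 881 FPKM in refractory. Of 18 markers of retinal interneurons and ganglion cells 6 were named, led by CALB2, GAD1 and ELAVL4, with sums of 0, 857, 764 and 745 FPKM from sensitive to refractory. Of 15 general neuron markers 5 were named, led by SCG3, ENO2 and STMN2, at 6.05, 571, 472 and 547 FPKM in sum, and 3 of 7 markers of Mueller glia (SLC1A3, AQP4 and RLBP1) at 0, 181, 160 and 130 FPKM. The single endothelial and the single smooth-muscle marker named, FABP4 of 9 and KCNMB1 of 13, were at 538 and 195 FPKM in sensitive and at 0 in the other libraries. Among markers of the labelled tissue, 1 of 10 for Sertoli cells (INHA, at 3.81 FPKM in sensitive and at 0 elsewhere), 0 of 7 for Leydig cells and 3 of 14 for germ cells (GFRA1, MEIG1 and TDRD6) were named, the last with sums of 12.9, 4.55, 5.59 and 8.39 FPKM. Of 11 blood and immune markers 0 were named. Of the germ cell markers GFRA1 and TDRD6 were highest in sensitive and MEIG1 in refractory, at 5.74 FPKM against 3.45 FPKM in sensitive. INHA and TDRD6, the latter at 1.82 FPKM in sensitive and at 0 elsewhere, have several exons and lie under the floors of the later libraries. Their missing listing there does not show a difference. The marker values go against the tissue label for the 3 later libraries, and the few testis markers named do not establish it for sensitive. A difference between testicular states and a difference in the tissue sampled therefore cannot be told apart in any comparison with sensitive. Markers also differed among the later libraries. Of 7 photoreceptor markers 3 were lower by at least 1 in log2(FPKM + 1) in late than in early stimulated, beside 11.9% of all genes. In refractory against late stimulated 3 were higher and 1 lower, beside 18.8% and 11.2%. Of the 5 general neuron markers 2 were lower in late than in early stimulated, and in refractory against late stimulated 3 were higher and 1 lower. Of the 3 markers of Mueller glia RLBP1 was lower in late than in early stimulated, by -1.46, and higher in refractory, by 1.72. Of the 6 interneuron and ganglion cell markers 0 differed so in either comparison. State and the cells sampled cannot be told apart there either. The part of these cells in the receptor levels was not tested, and in whole tissue fewer cells of a type and less RNA per cell cannot be told apart.

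GPR85 had the highest level of all receptors. It is an orphan receptor of the SREB family, known in mammals for its expression in brain and for an unusually conserved sequence. The gene (ENSFALG00000015101) lies on the minus strand of scaffold JH603287.1 of the flycatcher assembly FicAlb_1.4, with 1 exon from 1642886 to 1643998. It stood at 2.92 FPKM in sensitive, 120 FPKM in early stimulated, 203 FPKM in late stimulated and 106 FPKM in refractory. Only the sensitive library was low, and its value rests on 7.68 times 51 aligned bases, against 526, 1901 and 739 times in the later states. The difference in log2(FPKM + 1) was 4.95 for early stimulated against sensitive and 4.78 for refractory against sensitive.

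P2RY1, the receptor through which ADP raises intracellular calcium in platelets and other cells, came next. Its single exon (ENSFALG00000014494, minus strand of scaffold JH603334.1, 878195 to 879286) had 8.42 FPKM in sensitive, 76.7 FPKM in early stimulated, 99.4 FPKM in late stimulated and 80.5 FPKM in refractory. The 3 later libraries lay close together and the sensitive library far below them. The differences from sensitive were 3.04 in early stimulated and 3.11 in refractory. Beside P2RY1 on the same scaffold lie P2RY12, the ADP receptor of platelets and microglia, at a gap of 196.3 kb, and P2RY14, a receptor for UDP-sugars, 36.7 kb further on. These neighbours did not share its levels. P2RY12 was at 1.23, 0.248, 0.344 and 0.754 FPKM from sensitive to refractory. P2RY14 was at 1.65 FPKM in sensitive and 0.117 in late stimulated and was uncovered in early stimulated and refractory. P2RY8, a receptor of germinal-centre B cells named with this group, did not reach 1 FPKM, with 0.788 FPKM in sensitive and 0.111 in late stimulated as its only values.

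Monoamine and acetylcholine receptors numbered 12, and their summed level was 15.2 FPKM in sensitive, 50.5 FPKM in early stimulated, 40.0 FPKM in late stimulated and 65.1 FPKM in refractory. The highest of them in each library was DRD1, the dopamine receptor that stimulates cyclic AMP through Gs-type proteins. DRD1 (ENSFALG00000014407, plus strand of scaffold JH603211.1, 5222447 to 5223805) was at 5.42 FPKM in sensitive, 28.9 FPKM in early stimulated, 20.03 FPKM in late stimulated and 36.0 FPKM in refractory. All 3 later libraries lay above the sensitive one, by 2.22 in early stimulated and by 2.53 in refractory.

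HTR1B, a serotonin receptor that inhibits transmitter release at nerve terminals, was likewise lowest in sensitive. It was at 1.87 FPKM in sensitive, 14.1 FPKM in early stimulated, 10.9 FPKM in late stimulated and 13.9 FPKM in refractory, and its sensitive value rests on 5.0 times 51 bases. A different course was seen in HTR1E, a serotonin receptor coupled to inhibitory G proteins. HTR1E had 0.258 FPKM in sensitive, 0.607 FPKM in early stimulated, 0.932 FPKM in late stimulated and 3.86 FPKM in refractory, so that only the refractory library passed 1 FPKM. Its difference was 1.33 for refractory against late stimulated, where HTR1B differed by 0.32. HTR1F was at 0.767, 0.659, 1.88 and 1.34 FPKM in the sequence of states, and HTR1A was covered only in late stimulated, at 0.192 FPKM, and in refractory, at 0.129 FPKM.

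Adrenergic receptors parted by subtype. ADRA2A, the presynaptic inhibitory receptor for noradrenaline, had 4.79 FPKM in sensitive, none listed in early stimulated, 0.523 FPKM in late stimulated and 0.478 in refractory, a difference of -1.97 for refractory against sensitive. Its close relative ADRA2C was at 1.58, 3.08, 1.36 and 3.28 FPKM along the sequence of states and differed by less than 1 in each comparison. ADRA1D, which acts through calcium in smooth muscle, was covered only in late stimulated, at 1.62 FPKM, and in refractory, at 2.42 FPKM. Both levels lie under the floors of the other libraries, where a gene of several exons may go unlisted.

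Muscarinic acetylcholine receptors were low throughout. CHRM4, an inhibitory subtype, was uncovered in sensitive and at 1.72 FPKM in early stimulated, 0.732 FPKM in late stimulated and 1.94 FPKM in refractory. CHRM3, the subtype of smooth muscle and glands, was at 0.470 FPKM in sensitive, 0.563 FPKM in early stimulated, 1.42 FPKM in late stimulated and 1.59 FPKM in refractory. CHRM5 stayed under 1 FPKM, uncovered in sensitive and at 0.640, 0.371 and 0.202 FPKM in the later states.

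Lipid receptors held both directions. S1PR3 and S1PR1 bind the same ligand, sphingosine 1-phosphate, a lipid that guides vessel tone and the traffic of lymphocytes. S1PR3 (ENSFALG00000014417, plus strand of scaffold JH603301.1, 1965823 to 1966968) was at 65.6 FPKM in sensitive, 14.7 FPKM in early stimulated, 9.29 FPKM in late stimulated and 19.4 FPKM in refractory. S1PR1 (ENSFALG00000014446, plus strand of scaffold JH603197.1, 2388217 to 2389356) was at 19.0 FPKM in sensitive, 39.1 FPKM in early stimulated, 45.0 FPKM in late stimulated and 54.7 FPKM in refractory. The sensitive library was thus the highest for S1PR3 and the lowest for S1PR1. The differences for early stimulated against sensitive were -2.08 for S1PR3 and 1.003 for S1PR1, and for refractory against sensitive -1.71 and 1.48. S1PR3 lay above S1PR1 in sensitive and below it in the later states, and both genes were covered by at least 51.1 times 51 bases in every library.

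LPAR4, a receptor for lysophosphatidic acid, was at 10.9 FPKM in sensitive, 1.43 FPKM in early stimulated, 1.43 FPKM in late stimulated and 2.46 FPKM in refractory. PTGER4, a prostaglandin E2 receptor that raises cyclic AMP, was at 7.33 FPKM in sensitive and 2.52 in early stimulated, and no coverage was listed in the other libraries. Since PTGER4 has several exons, its absence in late stimulated lies under that library's floor of 5.84 FPKM and its level in sensitive lies only a little over it. LPAR5 and GPR55, a receptor for lysophosphatidylinositol, were covered in sensitive alone, at 0.374 and 0.451 FPKM. GPR183, an oxysterol receptor of B cells, was at 0.365 FPKM in sensitive, 0.476 in early stimulated and 0.111 in late stimulated and uncovered in refractory.

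Of the 6 chemokine and chemerin receptors, all but ACKR3 were highest in sensitive. CCR4, a receptor of T-helper and regulatory T cells, was at 6.57 FPKM in sensitive, uncovered in early stimulated, at 0.221 FPKM in late stimulated and 0.149 FPKM in refractory. ACKR4, a scavenging receptor for homeostatic chemokines, lies 582.3 kb from CCR4 on the same scaffold and had the same order, at 2.39, 0, 0.213 and 0.151 FPKM. GPR1, a chemerin receptor, was at 5.04 FPKM in sensitive, 0.485 FPKM in early stimulated, 0.455 FPKM in late stimulated and 0.612 FPKM in refractory. All 3 were lower in refractory than in sensitive, with differences of -2.72 for CCR4, -1.56 for ACKR4 and -1.91 for GPR1. Few bases carry the later values: those of CCR4 in late stimulated and refractory are 2.0 and 1.0 times 51 bases.

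ACKR3, a scavenger of CXCL12 that is known from endothelium and brain, differed from these. It was at 5.47 FPKM in sensitive, 8.39 FPKM in early stimulated, 5.45 FPKM in late stimulated and 12.01 FPKM in refractory, so that refractory stood highest and sensitive and late stimulated were alike. Its difference was 1.01 both for refractory against late stimulated and for refractory against sensitive. ACKR2 and CXCR5, the B-cell follicle homing receptor, were covered only in sensitive, at 0.755 and 0.400 FPKM.

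Among peptide and protease receptors F2RL1, the protease-activated receptor cleaved by trypsin-like enzymes, was at 11.0 FPKM in sensitive, 0.930 FPKM in early stimulated, 0.866 FPKM in late stimulated and 0.869 FPKM in refractory. Sensitive alone was high, and the other values differed little. MC5R, a melanocortin receptor of exocrine glands in mammals, went the other way. It was uncovered in sensitive and at 3.36 FPKM in early stimulated, 5.78 FPKM in late stimulated and 1.13 FPKM in refractory. MC5R was lower in refractory than in late stimulated, with a difference of -1.67. MC4R, the hypothalamic receptor of appetite control, was uncovered in sensitive and at 0.638, 0.0586 and 0.696 FPKM in the later states, and MC1R, the receptor of melanocytes, was listed in refractory alone, at 0.171 FPKM.

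NPY2R, a presynaptic receptor for neuropeptide Y, was at 2.15 FPKM in sensitive, 2.39 FPKM in early stimulated, 1.94 FPKM in late stimulated and 5.23 FPKM in refractory. SSTR1, an inhibitory somatostatin receptor, was at 2.83, 2.61, 2.07 and 4.40 FPKM in the same order. In both the refractory library was highest and the other libraries were close, and the difference for refractory against late stimulated was 1.08 for NPY2R and 0.82 for SSTR1. SSTR2 was listed at 0.228 FPKM in early stimulated and 0.575 in refractory, and SSTR3 at 0.211 FPKM in early stimulated and 0.0871 in late stimulated.

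Frizzled receptors, which bind WNT proteins, numbered 6. Their summed level was 11.4 FPKM in sensitive, 4.72 FPKM in early stimulated, 2.59 FPKM in late stimulated and 7.18 FPKM in refractory. FZD1 was at 5.24, 2.48, 1.20 and 4.06 FPKM from sensitive to refractory and was 1.20 higher in refractory than in late stimulated. FZD7 had 2.27 FPKM in sensitive, 0.381 FPKM in early stimulated, 0.135 FPKM in late stimulated and 0.672 FPKM in refractory, and FZD2 had 2.20 FPKM in sensitive and a single further value of 0.0704 FPKM in late stimulated. FZD5, known from the developing eye, had another order, with 0.254 FPKM in sensitive, 1.21 FPKM in early stimulated, 0.344 FPKM in late stimulated and 1.89 FPKM in refractory. FZD10 was at 1.21, 0.423, 0.742 and 0.270 FPKM along the sequence of states, and FZD9 at 0.194, 0.232, 0.0982 and 0.293 FPKM. All values of FZD2, FZD5, FZD7, FZD9 and FZD10 rest on fewer than 20 times 51 bases.

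The remaining receptors are 17 with a GPR number, GPR85 among them, and the proton-sensing receptors, GPR65 among them. GPR22, an orphan receptor known from heart and brain, was at 1.28 FPKM in sensitive, 19.7 FPKM in early stimulated, 15.7 FPKM in late stimulated and 20.4 FPKM in refractory. GPR63, an orphan receptor of brain, was at 1.01, 6.49, 5.48 and 2.89 FPKM. GPR146, studied in mammals for its part in liver lipid metabolism, was at 11.6, 20.9, 23.4 and 25.8 FPKM. In all 3 the sensitive library was lowest, with differences from it of 3.18, 1.90 and 0.79 in early stimulated.

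GPR137B, a membrane protein of lysosomes that carries a receptor symbol, and GPR180 have 7 and 8 exons, and transcripts under other names cover part of their exons in some libraries. GPR137B (ENSFALG00000013498, minus strand of scaffold JH603172.1, 24618363 to 24643992) was at 34.5 FPKM in sensitive, uncovered in early stimulated, at 4.72 FPKM in late stimulated and 2.12 FPKM in refractory. Transcripts covered 73.7% of its exon length in late stimulated and 25.6% in refractory, with none there under its own name. GPR180 was at 8.39 FPKM in sensitive, uncovered in early stimulated, and at 4.60 FPKM in late stimulated and 3.80 in refractory. There 31.0% of its exon length was covered, with no transcript under its own name. Under its own name GPR180 in refractory differed by -2.49 from late stimulated and by -3.23 from sensitive in log2(FPKM + 1). For GPR137B the difference of late against early stimulated was 2.52 over all transcripts and 0 under its own name. The level of GPR137B in sensitive lies over the early stimulated floor of 12.5 FPKM, and that of GPR180 lies under it. GPR162 was listed in early stimulated only, at 7.45 FPKM, and GPR78 in early stimulated at 1.88 FPKM and in late stimulated at 2.21 FPKM. These levels of GPR162 and GPR78 lie under the sensitive floor of 20.8 FPKM.

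The other receptors of this class were near the limit of listing. GPR12, known in mammals for holding the oocyte in meiotic arrest and for its expression in brain, was at 0.421 FPKM in sensitive, 0.253 FPKM in early stimulated, 1.58 FPKM in late stimulated and 2.05 FPKM in refractory. GPR65 and GPR20 were covered in sensitive alone, at 1.54 and 1.16 FPKM, which are 3.78 and 2.92 times 51 bases. GPR139 was uncovered in sensitive and at 0.793, 0.736 and 0.856 FPKM in the later states, and GPR34, a lysophosphatidylserine receptor of microglia, was at 0.717, 0.222, 0.206 and 0.540 FPKM from sensitive to refractory. GPR17 was listed in early stimulated alone, at 0.236 FPKM, and GPR174 in refractory alone, at 0.167 FPKM. GPR18 was listed at 0.125 FPKM in late stimulated and 0.290 in refractory. GPR27 and GPR160 stayed under 0.5 FPKM in every library.

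**Figure D2:**
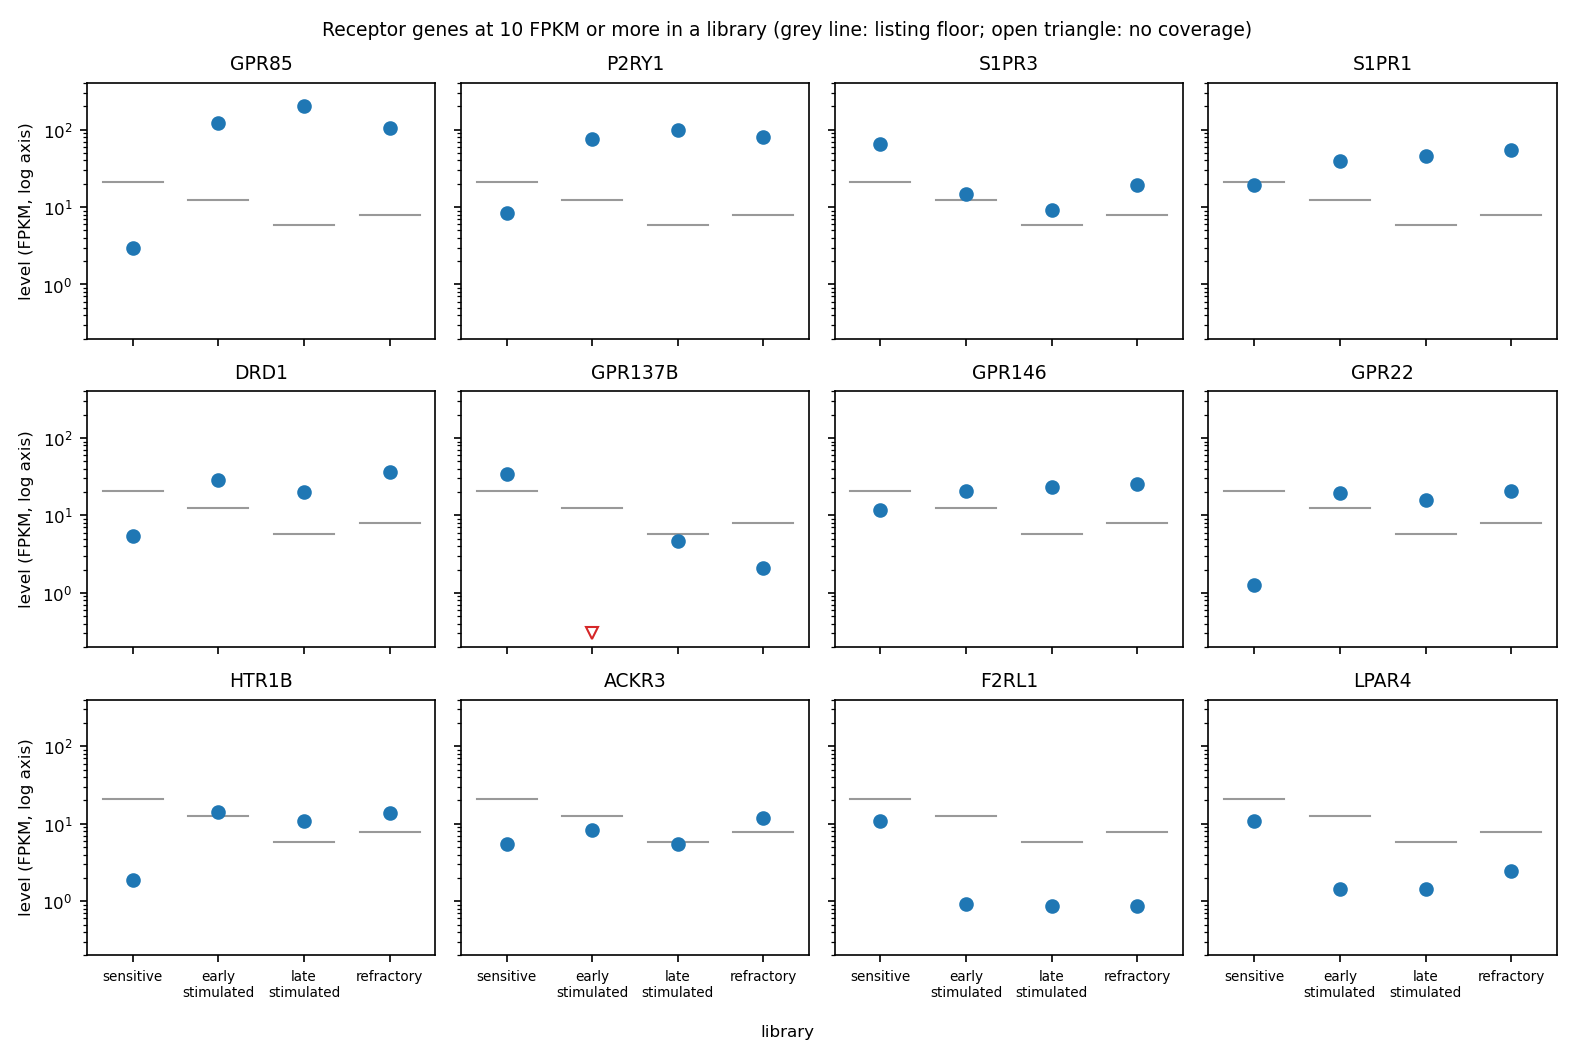
Level of the 12 receptor genes that reached 10 FPKM in a library, as points on a log axis in FPKM, for the 4 libraries along each panel; grey lines are the listing floors of transcripts without a reference match, and the open triangle marks a library with no coverage. GPR85, P2RY1, DRD1, GPR22 and HTR1B are low in the sensitive library alone, at 1.28 to 8.42 FPKM, and S1PR3, F2RL1 and LPAR4 are high in it alone, at 10.9 to 65.6 FPKM.

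A gene was called higher or lower where log2(FPKM + 1) differed by at least 1 between a pair of libraries and at least 1 of them reached 1 FPKM. In early stimulated against sensitive, 35 receptors could be compared, and 11 were higher and 15 lower. Over all 1822 genes compared 59.6% were called, 34.4% higher and 25.2% lower, against 74.3% of the receptors. Among 176 other single-exon genes 56.2% were called, 36.4% higher and 19.9% lower. These shares are partly set by the filter, which admits a gene through the library where it is high. Of the lower receptors ACKR4, CCR4, FZD7, GPR20, GPR65 and P2RY14 reached 1 FPKM in sensitive alone. The mean level over the pair had a median of 3.28 FPKM for the receptors and 15.8 FPKM for all genes. The shares were not tested against each other. The median difference was -0.63 for the receptors and 0.09 for all genes. Of the 26 called receptors 13 had no coverage in one of the libraries, and for 12 of these the level in the covered library lay under the floor of the uncovered one. Of the 12, GPR162, GPR180 and GPR78 have several exons and may lie unlisted under it. The others have a single exon, and such genes were listed far below the floor. With at least 1020 aligned bases (20 times 51) asked of one library, 14 calls were left, with 8 higher and 6 lower. Those 8 were DRD1, GPR162, GPR22, GPR63, GPR85, HTR1B, P2RY1 and S1PR1, and the 6 were F2RL1, GPR137B, GPR180, LPAR4, PTGER4 and S1PR3. GPR162 and GPR180 stayed through their bases in the covered library, though both lay under the floor of the uncovered one. Per kb of exon, 51 aligned bases equal 0.423 FPKM in sensitive, 0.254 FPKM in early stimulated and 0.160 FPKM in refractory. The 1020-base rule thus asks for a higher level in sensitive, and the split it leaves is partly set by depth.

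**Figure D3:**
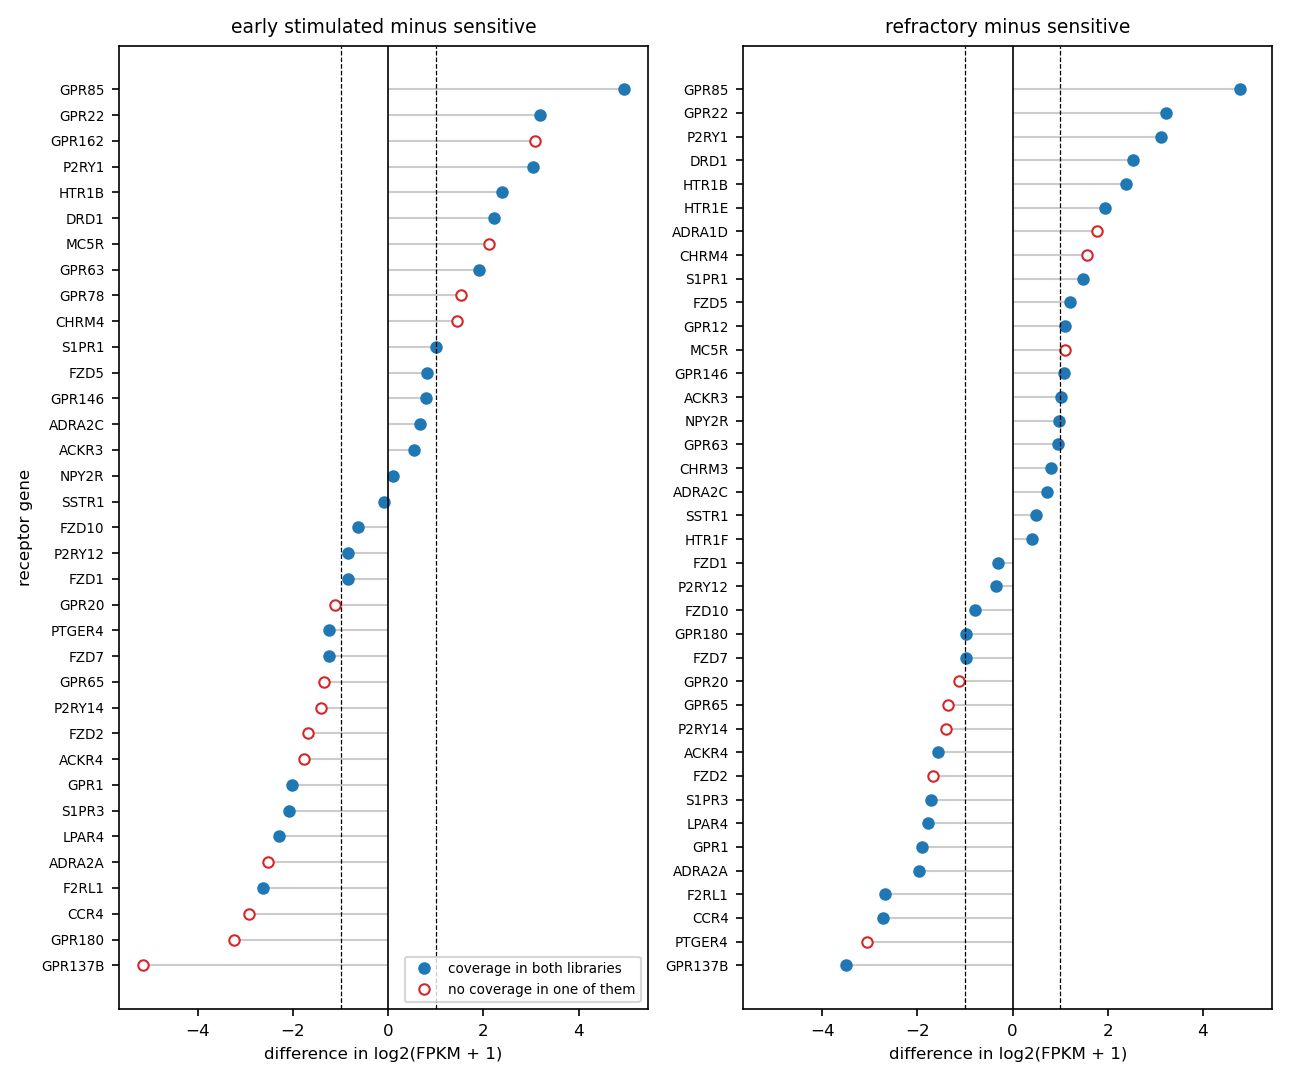
Difference in log2(FPKM + 1) of each receptor gene compared, for early stimulated minus sensitive on the left and refractory minus sensitive on the right, with dashed lines at a difference of 1 in either direction; filled points were covered in both libraries and open points in one. GPR85 stands at the top of both panels, at 4.95 and 4.78, and GPR137B at the bottom, at -5.15 and -3.51.

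Fewer receptors were called in late against early stimulated than in early stimulated against sensitive. Of 27 receptors compared 4 were higher and 2 lower in late stimulated, or 22.2%, beside 22.4% of all genes, 10.5% higher and 11.9% lower. Other single-exon genes were called in 19.2%, with 4.64% higher and 14.6% lower. The 4 higher were ADRA1D, GPR12, GPR137B and GPR180 and the 2 lower were GPR162 and PTGER4. Apart from GPR12, at 1.58 FPKM in late stimulated against 0.253 in early stimulated, each had several exons and no coverage in one of the libraries. For 4 of these 5 the level in the covered library lay under the floor of the uncovered one. The median difference was -0.20 for the receptors and -0.08 for all genes. The receptors with the highest levels stayed within the threshold, with 0.76 for GPR85, 0.37 for P2RY1, -0.51 for DRD1 and -0.61 for S1PR3.

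In refractory against late stimulated, 26 receptors were compared, with 5 higher and 2 lower. That is 26.9% called, beside 29.9% of all genes, of which 18.8% were higher and 11.2% lower, and 23.1% of other single-exon genes, 16.9% higher and 6.25% lower. The 5 higher were ACKR3, FZD1, FZD5, HTR1E and NPY2R, and the 2 lower were GPR78 and MC5R. ACKR3 had the highest level of the 5 in refractory. S1PR3, at 19.4 FPKM in refractory against 9.29 in late stimulated, missed the threshold with 0.99, and GPR85, at 106 against 203 FPKM, with -0.93. After median-of-ratios scaling the split was 3 higher and 4 lower, since ACKR3 at 0.84 and NPY2R at 0.94 dropped out and GPR85 at -1.12 and GPR137B at -1.03 came in.

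Refractory against sensitive, which closes the sequence of states, had 14 receptors higher and 13 lower of 38 compared. That is 71.1% called, beside 61.7% of all genes, 36.5% of which were higher and 25.2% lower. Of other single-exon genes 54.2% were called, 33.5% higher and 20.7% lower. Here too the filter admits genes through the library where they are high, and the shares were not tested against each other. The mean level over the pair had a median of 2.73 FPKM for the receptors and 15.9 FPKM for all genes. The median difference was 0.45 for the receptors and 0.22 for all genes. This comparison and that of early stimulated share the sensitive library, so their calls are not independent. HTR1E at 1.95, FZD5 at 1.20, GPR12 at 1.10, GPR146 at 1.09 and ACKR3 at 1.01 were higher in refractory, with smaller differences in early stimulated of 0.35, 0.82, -0.18, 0.79 and 0.54. ADRA1D, at 1.77, was uncovered in both sensitive and early stimulated. Of the 27 calls 8 had no coverage in one library, and for all 8 the level in the covered library lay under the floor of the uncovered one. Of the 8, ADRA1D and PTGER4 have several exons and may lie unlisted under it. The others have a single exon, and such genes were listed far below the floor. With uncovered genes set to 51 bases 6 of the 8 kept their call. With at least 1020 aligned bases in one library 10 higher and 5 lower were left. These still include ADRA1D and PTGER4, which have several exons and lay under that floor. The rule asks for a higher level in sensitive than in refractory, so this split is partly set by depth.

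Across all 3 later libraries, 7 receptors differed from sensitive by at least 1 upwards in each: DRD1, GPR22, GPR85, HTR1B, MC5R, P2RY1 and S1PR1. Another 13 differed downwards in each: ACKR4, ADRA2A, CCR4, F2RL1, FZD2, GPR1, GPR137B, GPR20, GPR65, LPAR4, P2RY14, PTGER4 and S1PR3. These are 17.5% and 32.5% of the 40 receptors that reached 1 FPKM somewhere, beside 22.6% and 17.3% of 1958 genes. Of the lower receptors ACKR4, ADRA2A, CCR4, F2RL1, FZD2, GPR1, GPR20, GPR65 and P2RY14 reached 1 FPKM in sensitive alone. They entered the 40 through the library where they are high, so the share of 32.5% is partly set by that filter. The share among other single-exon genes was not computed for this count. The 3 lists of differences share the sensitive library, and the shares were not tested against each other. Of the 13 lower receptors only F2RL1, GPR137B, LPAR4, PTGER4 and S1PR3 rest on at least 20 times 51 bases in sensitive. In that library so many bases stand for a higher FPKM than in the others. PTGER4 has several exons, and its 7.33 FPKM in sensitive lies under the refractory floor of 7.86 FPKM. GPR137B had no transcript under its own name in the later libraries. With uncovered genes set to 51 bases MC5R at 0.58 and GPR20 at -0.91 lost their calls in refractory against sensitive. The levels of the 40 receptors had Spearman correlations across genes of 0.68 between late and early stimulated, 0.70 between refractory and early stimulated and 0.86 between refractory and late stimulated. With sensitive they were 0.18 for early stimulated, 0.28 for late stimulated and 0.36 for refractory. Over all 1958 genes they were 0.91, 0.90 and 0.89 among the later libraries and 0.54, 0.56 and 0.53 with sensitive. Genes are not independent replicates, and low levels and gene length are shared by these points.

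A separate readout lay beside the coding exons. Most receptor models have the length of a coding region, so transcripts without a reference match were looked for in the 3000 bases on the 3' side of each receptor, on its strand or without a strand, and their coverage was averaged over that window in FPKM units. Such coverage was listed for 20 of the 62 receptors, and on the 5' side for 2. The window may hold transcripts of other genes, and the floors above apply to each transcript in it, not to the average over the window.

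Some windows had the same order of sensitive and later libraries as the exons. The window of DRD1 was at 3.06 FPKM in sensitive, 23.3 FPKM in early stimulated, 26.6 FPKM in late stimulated and 24.6 FPKM in refractory. The window of HTR1B had no listed transcript in sensitive and stood at 15.2, 31.9 and 16.9 FPKM in the later states, and that of GPR85 none in sensitive and 4.73, 5.46 and 2.88 FPKM. The sensitive floor of 20.8 FPKM applies to each transcript, and these values are averages over the window. They therefore cannot be set against it, and whether the missing listing stands for a lower level was not tested. S1PR3 had 4.68 FPKM beside it in sensitive and 1.17, 0.788 and 0.839 in the later states, and LPAR4 had 9.54 FPKM in sensitive, 1.55 in late stimulated and none in the others. For FZD7 the window was at 10.1 FPKM in sensitive and 2.27, 1.14 and 1.26 in the later states.

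Other windows did not follow the exons. S1PR1 had 18.8 FPKM beside it in sensitive, 8.07 FPKM in early stimulated, 16.0 FPKM in late stimulated and 6.11 FPKM in refractory, so that the window was highest where the exon was lowest. The window of P2RY1 was at 6.16, 31.0, 6.42 and 4.05 FPKM, which followed the exon in early stimulated only. ACKR3 had a window between 27.9 and 32.3 FPKM in all libraries, where its exon varied from 5.45 to 12.01 FPKM. The window of GPR137B was also even, at 12.1, 9.36, 11.2 and 9.91 FPKM, while its exons were at 34.5 FPKM in sensitive and uncovered in early stimulated. Of the 26 receptors called in early stimulated against sensitive 12 had a window with coverage in either library, and in 10 of these the window differed by at least 1 the same way and in 1, S1PR1, the opposite way. The 10 include GPR180, GPR78, HTR1B, LPAR4, ADRA2A and GPR85, whose window had no listing in one of the libraries. In refractory against sensitive the window was covered for 12 of 27, with 7 the same way by at least 1 and 1 the opposite way. Those 7 include HTR1B, LPAR4, ADRA2A, GPR85 and FZD5, whose window had no listing in one of the libraries. In refractory against late stimulated 5 of 7 called receptors had a window, with 0 the same way by at least 1 and FZD1 the opposite way, at -1.23 for the window and 1.20 for the exon. In late against early stimulated 2 of 6 had a window, and 0 of them differed by at least 1. Windows were taken for receptors alone, so no share over all genes stands beside these counts. Whether receptors differ from other genes in this was not tested.

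**Figure D4:**
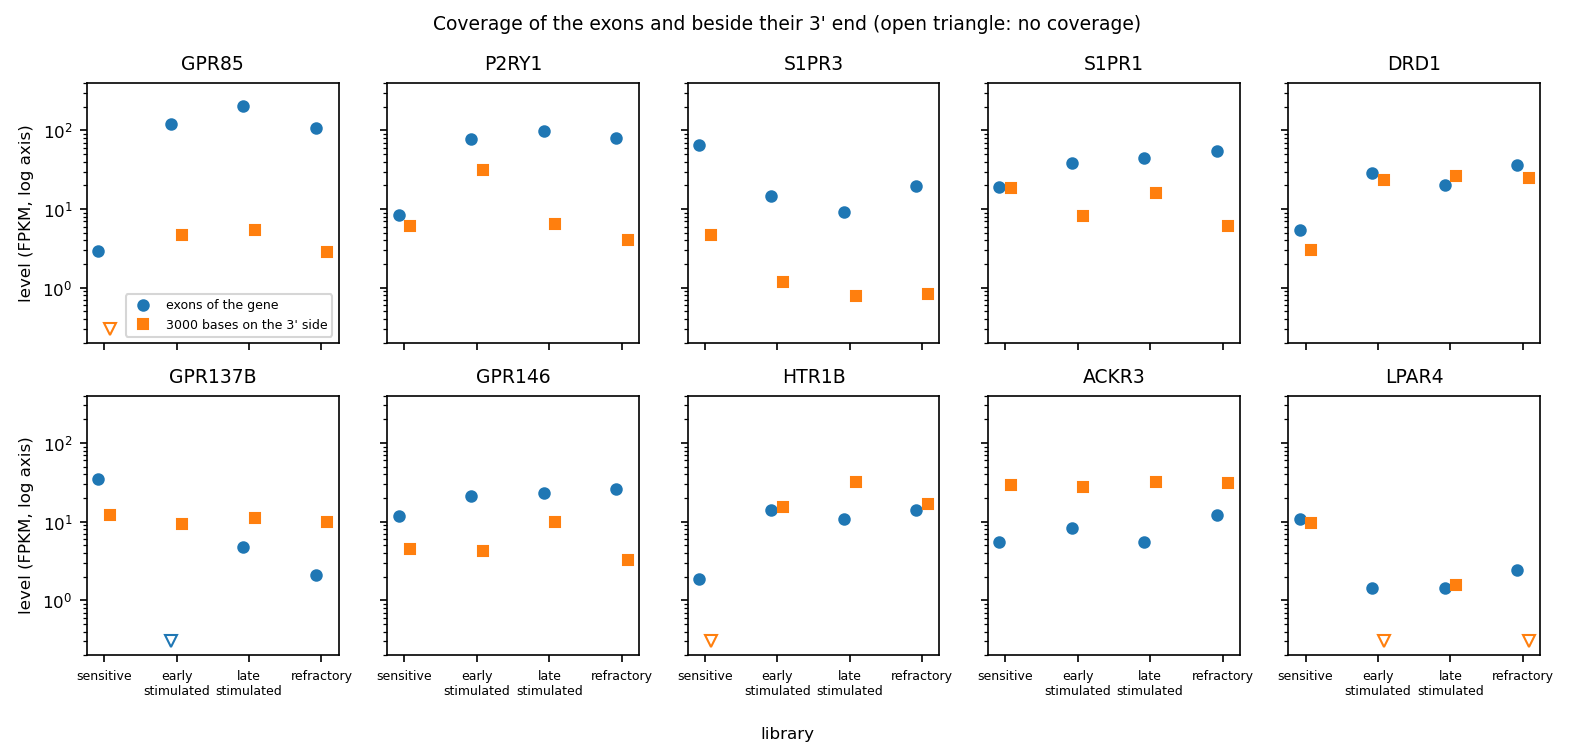
Level of the exons (circles) and of the 3000 bases on the 3' side of them (squares) in FPKM on a log axis, in the 4 libraries, for the 10 receptor genes at 10 FPKM or more that had a listed transcript in that window; open triangles mark no coverage. Both readouts of DRD1 are lowest in the sensitive library, while the window of ACKR3 stays between 27.9 and 32.3 FPKM.

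Receptors outside the symbol pattern and the partners of receptor signalling were counted from fixed symbol lists. Of 20 other receptors named in the files 8 could be compared in early stimulated against sensitive, with 3 higher and 4 lower, beside 34.4% higher and 25.2% lower of all genes. GPRC5B, a retinoic-acid-induced receptor of brain, was at 14.5 FPKM in sensitive, 76.1 FPKM in early stimulated, 81.9 FPKM in late stimulated and 73.1 FPKM in refractory. GABBR2, a subunit of the GABA-B receptor, was uncovered in sensitive and at 29.5, 36.5 and 27.4 FPKM in the later states, and the latrophilin ADGRL2 was at 11.5, 19.1, 26.01 and 32.4 FPKM. AGTR1, the angiotensin II receptor of vessels, named after its values were seen, was at 20.3 FPKM in sensitive and at 0.235, 0.110 and 0.148 FPKM in the later states.

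G protein subunits named in the files were 12, of which 11 could be compared in early stimulated against sensitive, with 7 higher and 0 lower and a median difference of 1.60, beside 34.4% higher and 25.2% lower and a median of 0.09 over all genes. In refractory against sensitive 8 of 12 were higher and GNAI3 was lower, beside 36.5% and 25.2% of all genes. Among the 8 higher, 2 were uncovered in sensitive and lay under its floor of 20.8 FPKM in refractory. GNB1, a beta subunit found in most cells, was at 350 FPKM in sensitive, 1049 FPKM in early stimulated, 958 FPKM in late stimulated and 871 FPKM in refractory. The inhibitory subunit GNAI1 was at 87.7, 176, 185 and 147 FPKM. Its relative GNAI3, at 84.4, 53.8, 44.7 and 36.2 FPKM, and GNA11, a subunit that acts on phospholipase C, at 47.8, 24.0, 42.9 and 24.6 FPKM, were highest in sensitive and are named after their values were seen. GNG13, a gamma subunit of taste and retinal bipolar cells, was uncovered in sensitive and at 121, 90.6 and 274 FPKM in the later states, and the cone transducin GNAT2, also one of the photoreceptor markers, likewise at 101, 59.8 and 150 FPKM. GNB1 lay above every receptor of the pattern in each library, on the same scale per length.

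All 3 regulators of receptor desensitisation named in the files were higher in early stimulated than in sensitive, where 34.4% of all genes were. RGS7, which speeds GTP hydrolysis by inhibitory subunits in neurons, and RGS8 were uncovered in sensitive, and stood at 78.2 and 17.3 FPKM in early stimulated, 91.6 and 33.8 in late stimulated and 94.2 and 24.3 in refractory. The level of RGS8 in early stimulated lies under the sensitive floor. GRK7, the cone opsin kinase, was at 6.46, 40.8, 39.2 and 46.3 FPKM along the sequence of states. Of 3 effectors KCNJ6, a potassium channel opened by G protein beta-gamma subunits, was called higher, uncovered in sensitive and at 3.55, 4.41 and 3.92 FPKM in the later states. These levels lie under the sensitive floor of 20.8 FPKM, so its missing listing there does not show a difference. The protein kinase A subunits PRKAR2B, at 23.9, 45.5, 79.0 and 37.9 FPKM, and PRKAR2A, at 17.1, 28.6, 21.4 and 31.0 FPKM, were within the threshold in early stimulated against sensitive.

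The WNT list held a single named gene besides the Frizzled receptors. RSPO3, a secreted enhancer of WNT signalling, was at 31.2 FPKM in sensitive, uncovered in both stimulated libraries and at 7.10 FPKM in refractory. Its refractory level lies under the early stimulated floor of 12.5 FPKM and over the late stimulated floor of 5.84 FPKM. Of ligands and their enzymes, PTGES3, a co-chaperone with prostaglandin E synthase activity, was at 181, 187, 135 and 182 FPKM, and the chemokine CXCL14 was uncovered in sensitive and at 26.4, 11.0 and 12.2 FPKM in the later states. The late stimulated and refractory levels of CXCL14, a gene of several exons, lie under the sensitive floor of 20.8 FPKM. REEP3, from the list of accessory proteins, was at 4.22, 6.22, 15.9 and 4.78 FPKM.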

How the data were processed

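RNA-seq of 4 libraries labelled as testis was used as deposited. Per the file headers, the authors ran StringTie 1.3.3b separately on every library, with gene models of the collared flycatcher, another songbird (FicAlb_1.4, Ensembl 89), as guide. The submitters' processing notes name Trimmomatic, and no aligner is stated in the sources used. The deposited values are transcript FPKM, TPM and coverage, and exon coverage, with no read counts and no scaling between libraries recorded. The header of the sensitive library uses another abbreviation than its title.

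Exon coverage was computed in Python 3.11.15 with pandas 2.3.3, over the exons of each gene's reference-matched transcripts in any file, from transcripts of its own strand or of none. For 60 of 62 receptors it equalled the value under the gene's own name within 1%. Differences used log2(FPKM + 1), which understates changes of low genes. There were no tests. Overlapping genes and paralogs can share coverage. The coverage code was checked for returning known fold changes put into the coverage of chosen genes of the late stimulated library. That check did not cover the floors, the uncovered genes or the calls.

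Members, lists and the naming rule were chosen with earlier results of these data known. Receptors were named, with up to 4 genes of each of 7 pathway lists at 5 FPKM or more, and up to 3 of each marker list, of which sums are given here with few single genes. AGTR1, GNAI3, GNA11 and KCNJ6 were named after their values were seen. Some genes are not reported here, and those that belong to a list are left out of its counts and sums. The 51-base measure, the 3' windows and 3 of 10 alternatives were added after the data were seen.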

Additional observations from a re-analysis of the deposited data

How the results depend on the processing

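Among the limits are the single library per state, the markers that differ between libraries, and depth: a level of 1 FPKM in a gene of receptor length rests on only a few multiples of 51 aligned bases in the sensitive library. No paired analysis was possible because each state has 1 library. The called receptors numbered 26, 6, 7 and 27 in early stimulated against sensitive, late against early stimulated, refractory against late stimulated and refractory against sensitive. A pseudocount of 5 left 12, 1, 0 and 12. Genes covered in both libraries gave 13 calls in the first comparison and 1 in the second, and single-exon genes alone gave 1 in the second. At least 1020 aligned bases gave 14 in the first and 15 in the last. All other counts stayed within 1.5 times. Median-of-ratios scaling shifted log2 differences by 0.15, 0.12, -0.19 and 0.08 in the 4 comparisons. Of 66 called differences, 0 changed sign under the gene's own name, a pseudocount of 5, this scaling, own-strand coverage or uncovered genes at 51 bases. A pseudocount keeps the order of a pair of values, and these scaling shifts are far smaller than a called difference. In a gene of receptor length 51 bases stand for less than 1 FPKM. Those settings could therefore not change a sign. With uncovered genes at the listing floor 25 of 27 reversed, by construction, since the floor then lies over the level in the other library. In early stimulated against sensitive these were GPR180 at 0.52, GPR162 at -1.36, GPR78 at -2.92, MC5R at -2.32, CHRM4 at -3.00, CCR4 at 0.83, ACKR4 at 1.99, GPR20 at 2.64, GPR65 at 2.40, P2RY14 at 2.35, ADRA2A at 1.22 and FZD2 at 2.07. In late against early stimulated they were ADRA1D at -2.36, PTGER4 at 0.96, GPR180 at -1.26 and GPR137B at -1.23, and in refractory against late stimulated GPR78 at 1.46. In refractory against sensitive they were ADRA1D at -2.67, PTGER4 at 0.089, MC5R at -3.35, CHRM4 at -2.89, GPR20 at 2.03, GPR65 at 1.80, P2RY14 at 1.74 and FZD2 at 1.47. Of the reversed genes ADRA1D, GPR137B, GPR162, GPR180, GPR78 and PTGER4 have several exons. The others have a single exon, and such genes were listed far below the floor. For these single-exon genes the floor does not mark the limit of listing. Receptors of several exons were also listed under the floor of their own library, such as ADRA1D at 1.62 FPKM in late stimulated. For them the floor is not a fixed limit either, though an unlisted one may lie anywhere under it.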

Other observations

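Coverage was listed on the 3' side of 2 receptors whose own exon was almost bare. GPR160 had 0.416 FPKM in sensitive, none in early stimulated, 0.106 FPKM in late stimulated and 0.151 in refractory, while the 3000 bases beside it were at 16.0, 12.3, 13.4 and 8.67 FPKM. GPR27, an orphan receptor of brain and pancreas, had exon coverage only in late stimulated, at 0.317 FPKM, and in refractory, at 0.142 FPKM, and its window was at 6.56, 8.25, 12.5 and 7.04 FPKM. In SSTR1 the window was lowest in refractory, at 3.38 FPKM, where the exon was highest, at 4.40 FPKM. Whether these windows belong to the receptors was not tested.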
